A study of Homo sapiens with 6 samples.

Results

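The aminoacyl-tRNA synthetases are the enzymes that join each amino acid to its transfer RNA before translation. The 36 genes described here are those whose Ensembl identifiers carry a synthetase symbol in GENCODE release 29. They were chosen by name from 58735 measured genes. These genes and the lists set beside them were chosen with earlier results of these data known. Symbols are those of that release, and the cytosolic genes now carry a suffix 1 (AARS is AARS1). The set holds 20 cytosolic genes and 16 mitochondrial genes, whose symbols end in 2. RNA sequencing was done on A549 cells, an established human lung cancer line (non-small cell), labelled wild type and grown with serum. The 3 B35 libraries came from cells given B35, named by the series as an inhibitor of the histone demethylase LSD1, at 2 µM for 72 h. The 3 control libraries came from untreated cells kept for the same 72 h, and the labels name no solvent. Whether the libraries of a group were grown as separate cultures is not labelled, and the spread behind the p-values may therefore be technical.

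Synthetases fall into class I and class II by the fold of their catalytic domain. In the cytosol several of them sit together in a multisynthetase complex held by the scaffold proteins AIMP1, AIMP2 and EEF1E1, while others are free. Mitochondria use their own set, encoded in the nucleus and imported, and GARS and KARS each encode the enzyme of both compartments. Transfer RNAs that lack their amino acid activate the kinase GCN2 (EIF2AK4), which raises translation of the transcription factor ATF4, and many cytosolic synthetase genes are known ATF4 targets. These statements are background, and ATF4 activity was not measured here.

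Library totals ran from 17141478 to 18530670 counts, and levels are given as CPM, the counts scaled to library size with TMM factors. KDM1A, the LSD1 gene, did not pass the test (mean ± SD of 3 libraries, control 198 ± 2.56 CPM and B35 184 ± 8.97 CPM, edgeR adjusted p = 0.432), and its transcript level is no measure of enzyme activity. Of the epithelial markers KRT8 and KRT18 were abundant, at 1663 and 526 CPM in control cells, while EPCAM, CDH1 and KRT19 were at 3.36, 1.34 and 0.243 CPM. The summed level of the 5 epithelial markers was 2160 to 2247 CPM in control and 1396 to 1739 CPM in B35 libraries. KRT8 fell to 1117 CPM (edgeR adjusted p = 0.00611), while EPCAM rose to 7.21 CPM (edgeR adjusted p = 0.00248). The 6 fibroblast markers summed to 27.1 to 27.3 CPM in control and 19.8 to 22.8 CPM in B35 libraries, with COL1A2, COL3A1 and LUM at or near 0, and the part of these differences in the results was not tested. The 5 haematopoietic markers summed to at most 1.55 CPM, with CD3E and HBB at 0, and the 4 endothelial markers to at most 9.44 CPM, with KDR at 0. The 3 neuronal markers summed to 7.92 to 8.97 CPM in control and 9.01 to 10.2 CPM in B35 libraries. B35 replicate 1 stood apart from the other B35 libraries (chi-square per degree of freedom of 26.3 and 32.3, against 4.46 to 12.5 for the other replicate pairs), and counts are given with and without it.

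Synthetase mRNAs were mostly lower after B35. All 36 genes had enough counts to test, and 13 fell and 1 rose (quasi-likelihood test of edgeR, p under 0.05 after Benjamini-Hochberg adjustment over 14773 genes). This is 38.9% of the members, against 15.4% of all genes tested, of which 6.59% fell and 8.82% rose. The cytosolic group held 9 of the falls among 20 genes and no rise. The mitochondrial group held 4 falls and the 1 rise among 16 genes. The median log2 fold change was −0.35 for cytosolic and −0.05 for mitochondrial genes, against 0.01 for all genes tested. Without control replicate 1 or B35 replicates 1, 2 or 3 the mitochondrial median was −0.11, −0.079, −0.089 and −0.11. In 21 members every B35 library was below every control library, and in 1 every B35 library was above, where 17.5% and 18.8% of all genes tested showed these patterns. Without B35 replicate 1, 14 cytosolic and 4 mitochondrial genes fell. Without control replicates 1, 2 and 3 in turn, 6, 7 and 5 cytosolic and 2, 2 and 1 mitochondrial genes fell, and without B35 replicate 2, 9 and 2 fell. CPM values are shares of each library, so fewer cells of a type and less RNA per cell cannot be told apart.

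**Figure D1:**
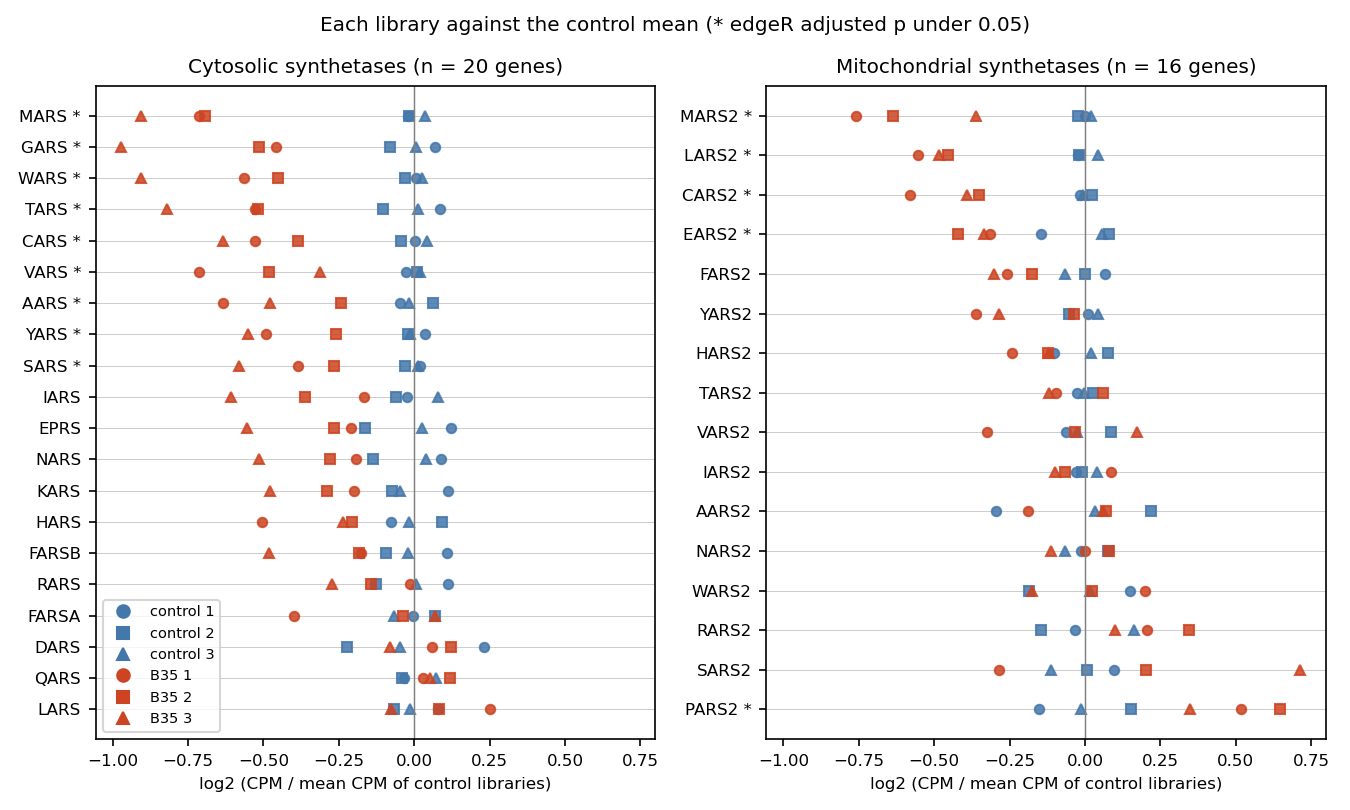
Each point is 1 library, placed by the log2 ratio of its TMM-scaled CPM to the mean of the 3 control libraries, for 20 cytosolic genes on the left and 16 mitochondrial genes on the right, ordered by fold change. Stars mark the 14 genes with an edgeR adjusted p under 0.05. The B35 points of 9 cytosolic and 4 mitochondrial starred genes lie to the left of all control points, and those of PARS2 lie to the right.

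Summed over the cytosolic genes, the level was 5764, 5346 and 5632 CPM in control replicates 1 to 3 and 4335, 4466 and 3789 CPM in B35 replicates 1 to 3. The groups did not overlap, and the B35 mean was 0.752 of the control mean. The mitochondrial sum was 821, 851 and 852 CPM in control and 746, 779 and 748 CPM in B35 libraries, with a ratio of means of 0.901. Among the 9 cytosolic genes that fell, B35 replicate 3 had the lowest level in 7 and B35 replicate 2 the highest in 7.

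The 5′ region of several cytosolic genes was examined because ATF4 is known to bind a composite site with the bases TGATGNAA. Of the 20 cytosolic genes, 17 had a negative log2 fold change and 9 of these passed the test, while LARS, QARS and DARS had a positive one. Whether the genes moved together, or through ATF4, was not tested. RefSeq promoters of 300 bases (GRCh38.p14, 250 before the annotated start and 50 after) were found for 30 of the 36 genes. Those of DARS, LARS, VARS, YARS, AARS2 and VARS2 were not matched. On either strand, TGATGNAA was present in 6 of 16 cytosolic and 1 of 14 mitochondrial promoters, against 3.67% of 27305 promoters of the same length. In all 6 cytosolic matches the letters were TGATGCAA or their reverse complement TTGCATCA, which 0.923% of all promoters hold. The 6 genes were AARS, CARS, MARS and TARS, which fell, and IARS and NARS, which did not pass the test. In YARS2, which did not pass either, the match was TGATGGAA. No match overlapped one of the other motifs searched. A match describes letters in this window and does not show binding.

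The windows below run 5′ to 3′ on the strand of the gene, with the match in capitals. Those of CARS (chr11:3057399-3057483, minus strand), MARS (chr12:57488008-57488092, plus), TARS (chr5:33440905-33440989, plus), IARS (chr9:92293673-92293757, minus) and NARS (chr18:57621812-57621896, minus) cover 60 bases before the annotated start and 25 from it on.
CARS: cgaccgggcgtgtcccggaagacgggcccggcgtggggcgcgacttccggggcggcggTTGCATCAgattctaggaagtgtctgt
MARS: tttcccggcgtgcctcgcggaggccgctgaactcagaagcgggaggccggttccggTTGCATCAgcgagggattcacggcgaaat
TARS: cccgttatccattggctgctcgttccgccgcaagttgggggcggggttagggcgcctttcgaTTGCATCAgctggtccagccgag
IARS: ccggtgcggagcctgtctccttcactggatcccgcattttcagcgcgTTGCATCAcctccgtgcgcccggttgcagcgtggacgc
NARS: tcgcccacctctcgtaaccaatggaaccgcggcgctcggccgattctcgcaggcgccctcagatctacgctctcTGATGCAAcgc
In CARS and MARS the match spans the annotated start, in TARS it begins just after it, in IARS it ends shortly before it, and in NARS it lies downstream. NARS alone reads TGATGCAA on its own strand, and the others read TTGCATCA. The annotated start of MARS in RefSeq lies within the longer GENCODE gene. In AARS the match lies further upstream, and the window (chr16:70289632-70289716, minus strand) covers the bases from 210 to 126 before the start.
AARS: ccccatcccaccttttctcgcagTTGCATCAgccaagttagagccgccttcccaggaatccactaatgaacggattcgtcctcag
For comparison, the same 85 bases around the start hold no match in GARS, which fell (chr7:30594675-30594759, plus strand), nor in QARS, which did not pass the test (chr3:49104733-49104817, minus strand).
GARS: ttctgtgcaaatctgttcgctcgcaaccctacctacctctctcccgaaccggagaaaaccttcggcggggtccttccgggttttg
QARS: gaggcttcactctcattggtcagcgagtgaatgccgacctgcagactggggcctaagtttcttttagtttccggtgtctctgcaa
Other motifs were searched in the same 30 promoters on both strands. The E-box CACGTG was present in 4 of them (CARS2, EARS2, MARS2 and IARS), against 7.43% of all promoters. The consensus of NRF1, a regulator of nuclear genes for mitochondria, was present in 3 cytosolic and 3 mitochondrial promoters, against 6.28% of all. CCAAT was present in 16 of 30, against 35.7% of all. The RefSeq window of CARS2, which holds E-box and CCAAT matches, lies within the longer GENCODE gene (chr13:110706466-110706765, gene end at 110713603, minus strand).

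The cytosolic enzyme whose mRNA fell by the largest factor was MARS (chromosome 12, 57475445 to 57517569, plus strand, hg38), which charges the initiator and elongator methionine tRNAs. Its level was 174, 174 and 180 CPM in control replicates 1 to 3 and 107, 109 and 93.9 CPM in B35 replicates 1 to 3. All B35 libraries lay far below the controls, and MARS was 1.70-fold lower (log2 −0.77 ± 0.092, SE, edgeR adjusted p = 0.000689). MARS shares 355 exon bases with DDIT3 and 519 with ARHGAP9 on the opposite strand, and the counting is not stated to use strand. DDIT3 was counted 1248 times and ARHGAP9 35 times over all libraries, against 14925 counts of MARS. In the main edgeR test MARS was the only enzyme of the multisynthetase complex that fell. With robust dispersion IARS fell as well. With no count filter, with replicate number as a block or with offsets for GC content and exon length, EPRS, IARS and KARS fell as well. Its promoter carries the match shown above.

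Synthetases that stand outside that complex made up the rest of the cytosolic falls, 8 of 12. TARS, the threonine enzyme (chromosome 5, 33440696 to 33469539, plus strand), was the most abundant synthetase and was measured at 1180, 1036 and 1124 CPM in control and 771, 778 and 630 CPM in B35 libraries. The lowest control exceeded the highest B35 library by a wide margin, and TARS was 1.53-fold lower (log2 −0.62 ± 0.10, edgeR adjusted p = 0.00385). GARS, the glycine enzyme of both compartments (chromosome 7, 30594681 to 30634033, plus strand), was at 442, 399 and 423 CPM in control and 307, 295 and 215 CPM in B35 libraries. B35 replicate 3 was the lowest, and the fall was 1.55-fold (log2 −0.63 ± 0.13, edgeR adjusted p = 0.00891). WARS, the tryptophan enzyme, which interferon also induces (chromosome 14, 100333788 to 100376805, minus strand), was at 133, 129 and 134 CPM in control and 89.4, 96.7 and 70.5 CPM in B35 libraries. The controls were tightly grouped, all B35 libraries were lower, and the fall was 1.55-fold (log2 −0.63 ± 0.12, edgeR adjusted p = 0.0057). CARS, the cysteine enzyme (chromosome 11, 3000922 to 3057613, minus strand), was at 217, 210 and 223 CPM in control and 150, 166 and 139 CPM in B35 libraries. It was 1.43-fold lower, with no overlap (log2 −0.51 ± 0.093, edgeR adjusted p = 0.00519). Some exon bases of GARS, WARS and CARS also belong to neighbouring genes. The falls of MARS, TARS, GARS, WARS and CARS passed the test under each alternative run.

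The other 4 falls were smaller, and each call was lost in some of the fits without 1 library, which use fewer samples. VARS, the valine enzyme (chromosome 6, 31777518 to 31795953, minus strand), was at 169, 173 and 174 CPM in control and 105, 123 and 138 CPM in B35 libraries. Its fall was 1.41-fold (log2 −0.49 ± 0.11, edgeR adjusted p = 0.0123), and the call was lost without control replicate 3 (0.0642). AARS, the alanine enzyme (chromosome 16, 70252295 to 70289543, minus strand), was at 533, 576 and 545 CPM in control and 355, 466 and 396 CPM in B35 libraries. The groups stood apart at 1.36-fold (log2 −0.44 ± 0.11, edgeR adjusted p = 0.0191). Without control replicates 1, 2 or 3 or B35 replicate 3 the adjusted p of AARS was 0.0548, 0.0725, 0.0801 and 0.0521 by edgeR.

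YARS, the tyrosine enzyme (chromosome 1, 32775237 to 32818153, minus strand), was at 291, 280 and 281 CPM in control and 202, 237 and 194 CPM in B35 libraries. It was 1.35-fold lower with no overlap (log2 −0.43 ± 0.097, edgeR adjusted p = 0.0146), and the call was lost without control replicate 1 or 3 (0.0636 and 0.072). YARS shares 396 exon bases with S100PBP on the opposite strand, and S100PBP has 5535 counts against 26534 of YARS. SARS, the serine enzyme (chromosome 1, 109213918 to 109238169, plus strand), was at 327, 316 and 326 CPM in control and 247, 269 and 216 CPM in B35 libraries. All B35 libraries were lower, at 1.32-fold (log2 −0.40 ± 0.097, edgeR adjusted p = 0.0189). The call of SARS was lost without control replicates 1, 2 or 3 or B35 replicate 3 (edgeR adjusted p = 0.0718, 0.0553, 0.0938 and 0.053).

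Several cytosolic genes lay just short of the threshold, and every B35 library of each was below every control library. IARS, the isoleucine enzyme of the complex, was at 359, 350 and 385 CPM in control and 325, 284 and 240 CPM in B35 libraries (log2 −0.37 ± 0.11, edgeR adjusted p = 0.0513). KARS, the lysine enzyme (log2 −0.32, adjusted p = 0.0568), NARS, the asparagine enzyme (−0.32, 0.0653), EPRS, which joins glutamate and proline activities in 1 chain (−0.34, 0.0701), and HARS, the histidine enzyme (−0.31, 0.0751), did not pass the edgeR test either. Without B35 replicate 1, IARS, KARS, NARS, EPRS and FARSB passed it (edgeR adjusted p = 0.00348, 0.0111, 0.0139, 0.0186 and 0.0497). DESeq2 with all libraries called IARS, KARS, NARS and EPRS lower. So did edgeR with no count filter, with the replicate block or with offsets for GC content and exon length. HARS passed with these offsets and with the replicate block (edgeR adjusted p = 0.0384 and 0.0412). IARS was also called lower by limma-voom, with relative log expression scaling and with robust dispersion. With all libraries FARSB, the beta subunit of the phenylalanine enzyme, had an adjusted p of 0.125 (edgeR, log2 −0.27).

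The remaining cytosolic genes overlapped between groups. LARS, the leucine enzyme, which also senses leucine for mTORC1, was at 172, 156 and 162 CPM in control and 194, 173 and 155 CPM in B35 libraries (log2 0.09 ± 0.10, edgeR adjusted p = 0.599). QARS, the glutamine enzyme, was at 169, 169 and 183 CPM in control and 177, 189 and 180 CPM in B35 libraries (log2 0.07 ± 0.085, edgeR adjusted p = 0.642). DARS (aspartate), RARS (arginine) and FARSA, the alpha subunit of the phenylalanine enzyme, had log2 fold changes of 0.04, −0.14 and −0.11 (edgeR adjusted p = 0.884, 0.387 and 0.589). In all, 1 of the 8 enzymes of the multisynthetase complex fell, with a median log2 fold change of −0.23, and 8 of the 12 other cytosolic genes fell, with a median of −0.44. By DESeq2, with no count filter, with the offsets or without B35 replicate 1, 4 of the 8 fell (MARS, EPRS, IARS and KARS). By catalytic class, 5 of 9 cytosolic class I and 4 of 10 cytosolic class II genes fell, EPRS holding both classes. The difference between these groups of genes was not tested.

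Of the mitochondrial enzymes, 4 fell. LARS2, for leucine (chromosome 3, 45388506 to 45549421, plus strand), was at 44.8, 44.9 and 46.9 CPM in control and 31.0, 33.2 and 32.5 CPM in B35 libraries. Both groups were tight and far apart, at 1.41-fold (log2 −0.50 ± 0.094, edgeR adjusted p = 0.00619), and LARS2 passed under each alternative run. CARS2, for cysteine (chromosome 13, 110641412 to 110713603, minus strand), was at 176, 181 and 177 CPM in control and 119, 140 and 136 CPM in B35 libraries. It was 1.35-fold lower (log2 −0.44 ± 0.092, edgeR adjusted p = 0.0104), and its call was lost without control replicate 3 (0.0608). CARS2 shares 326 exon bases with ING1 on the opposite strand, and ING1 has 6220 counts against 16615 of CARS2.

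MARS2, for methionine (chromosome 2, 197705369 to 197708387, plus strand), was at 12.3, 12.1 and 12.4 CPM in control and 7.23, 7.88 and 9.54 CPM in B35 libraries. It was 1.49-fold lower with no overlap (log2 −0.57 ± 0.15, edgeR adjusted p = 0.0239). Without control replicates 1, 2 or 3 or B35 replicate 2 the edgeR adjusted p of MARS2 was 0.078, 0.0629, 0.0938 and 0.0659. EARS2, for glutamate (chromosome 16, 23522014 to 23557731, minus strand), was at 33.0, 38.6 and 38.0 CPM in control and 29.3, 27.3 and 28.99 CPM in B35 libraries. Its fall was 1.28-fold (log2 −0.36 ± 0.11, edgeR adjusted p = 0.0444). The call was lost without any 1 of the controls (0.0542, 0.149 and 0.184), without B35 replicate 2 or 3 (0.124 and 0.0845) and with upper-quartile scaling (0.0648). EARS2 shares 370 exon bases with UBFD1 on the opposite strand, and UBFD1 has 12138 counts against 3489 of EARS2. The counting is not stated to use strand.

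PARS2, the mitochondrial proline enzyme (chromosome 1, 54756898 to 54764514, minus strand), was the only synthetase that rose. Its level was low, at 6.86, 8.47 and 7.55 CPM in control and 10.9, 11.9 and 9.70 CPM in B35 libraries. All B35 libraries were above the controls, at 1.42-fold (log2 0.51 ± 0.15, edgeR adjusted p = 0.0455). The call was lost without control replicates 1, 2 or 3 or B35 replicate 2 (edgeR adjusted p = 0.16, 0.0669, 0.152 and 0.141), and limma-voom gave 0.0509.

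The other 11 mitochondrial genes did not pass the edgeR test. FARS2 (phenylalanine) and HARS2 (histidine) had log2 fold changes of −0.25 and −0.16, with every B35 library below every control library (adjusted p = 0.175 and 0.328 by edgeR). YARS2 (tyrosine) was at −0.22 with overlapping groups. IARS2, TARS2, VARS2, AARS2, NARS2 and WARS2, for isoleucine, threonine, valine, alanine, asparagine and tryptophan, lay between −0.05 and 0.02 (edgeR adjusted p = 0.762 to 0.967). RARS2 (arginine) was at 0.22 ± 0.12 (SE, edgeR adjusted p = 0.244). SARS2 (serine) was at 0.27 ± 0.29 from only 230 counts in all 6 libraries, and 46.2% of its exon bases also belong to AC011455.2, which is listed at 0 counts, while MRPS12 on the opposite strand shares 349 bases and has 9451 counts. HARS and HARS2 lie head to head and share 437 exon bases on opposite strands. VARS2 shares 1858 exon bases with GTF2H4 on the same strand. How reads of such shared bases were counted, or whether they were left out, is not stated.

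Cytosolic and mitochondrial enzymes for the same amino acid were set side by side in 17 pairs, in which EPRS and FARS2 each count more than once. Both enzymes fell for methionine and for cysteine. In 6 pairs (AARS, SARS, TARS, VARS, WARS and YARS with their mitochondrial counterparts) the cytosolic gene fell and the other did not pass the test. Whether those effects differ was followed as the ratio of CPM within each library. The ratio of TARS to TARS2 was 15.8, 13.4 and 14.8 in control and 10.9, 9.84 and 9.02 in B35 libraries. The ratio of WARS to WARS2 was 3.80, 4.68 and 4.22 in control and 2.47, 3.02 and 2.53 in B35 libraries. In both cases all B35 ratios were below all control ratios. The ratio that changed most was that of EPRS to PARS2, a gene at a low level that rose. This ratio was 94.2, 62.4 and 79.9 in control and 47.0, 41.3 and 41.6 in B35 libraries.

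Leucine went the other way. The ratio of LARS to LARS2 was 3.84, 3.46 and 3.45 in control and 6.26, 5.19 and 4.75 in B35 libraries, higher in every B35 library, since LARS2 fell and LARS did not pass the test. The ratio of MARS to MARS2 was 14.1, 14.4 and 14.5 in control and 14.8, 13.8 and 9.85 in B35 libraries, and the groups overlapped. The mean ratio was lower after B35 in 14 of the 17 pairs. In 10 of the 17 all B35 ratios were below all control ratios, in 1 (LARS to LARS2) all were above, and in 6 the groups overlapped. Among single genes, 36.3% of all genes tested had groups that did not overlap. No such share was computed for ratios of other gene pairs, so these counts only describe the 17 pairs. With 3 libraries against 3 an exact two-sided permutation test of a ratio cannot go below p = 0.1, so these ratios are given without a test.

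**Figure D2:**
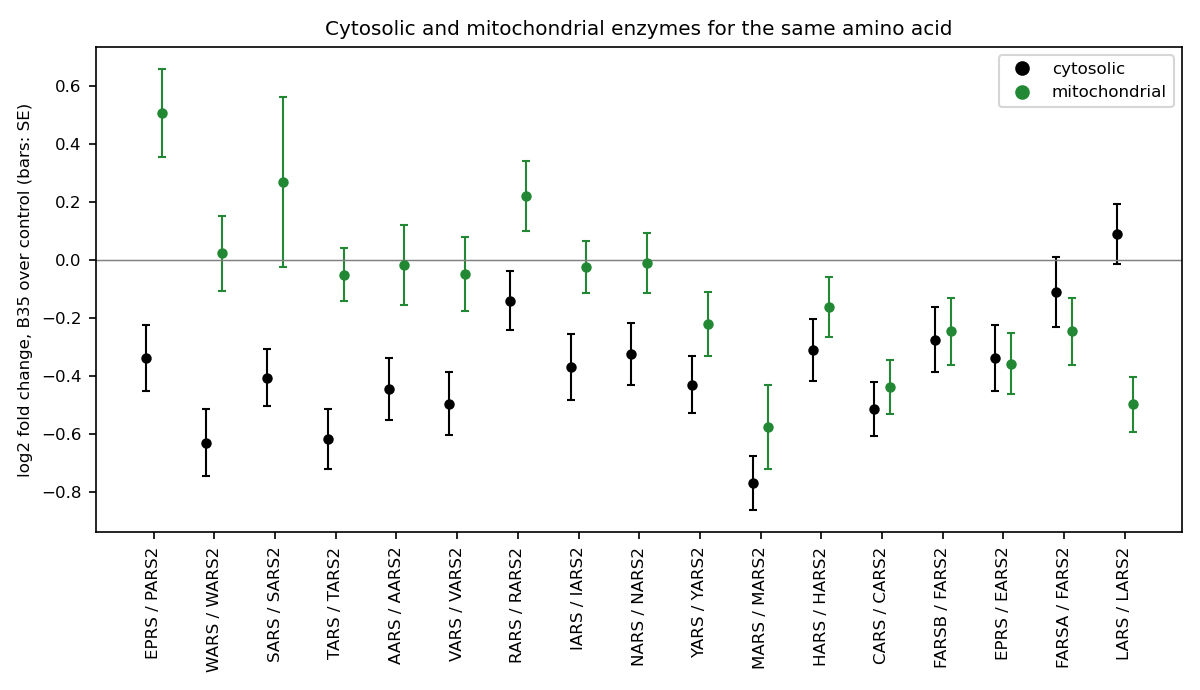
Log2 fold change of B35 over control (points) with its SE (bars) from the edgeR fit, for the cytosolic enzyme in black and its mitochondrial counterpart in green, in 17 pairs ordered by the change in their ratio. The black point is far below the green one for EPRS with PARS2 and for WARS, SARS, TARS, AARS and VARS. Both are low for MARS and CARS, and the order is turned most for LARS.

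Levels between genes were compared per exon length with the deposited FPKM values (counts scaled to library size and exon length). In control cells the cytosolic genes ran from 8.63 FPKM (HARS) to 194 ± 12.7 FPKM (TARS, SD, n = 3), with a median of 40.1 FPKM. AARS (122 ± 4.72 FPKM), EPRS (108 ± 10.9 FPKM), GARS (101 ± 5.25 FPKM) and SARS (83.8 ± 1.67 FPKM) followed TARS in this order. The mitochondrial genes ran from 0.594 FPKM (SARS2) to 53.2 ± 1.48 FPKM (IARS2), with a median of 8.32 FPKM, and IARS2 was the only one above the cytosolic median. Of the 35 neighbouring pairs in the order of control levels, 19 had overlapping ranges over the 3 control libraries, among them EPRS and GARS, RARS and IARS2, and HARS and HARS2. Falls occurred across this range, from TARS to MARS2 at 4.04 FPKM in control cells.

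**Figure D3:**
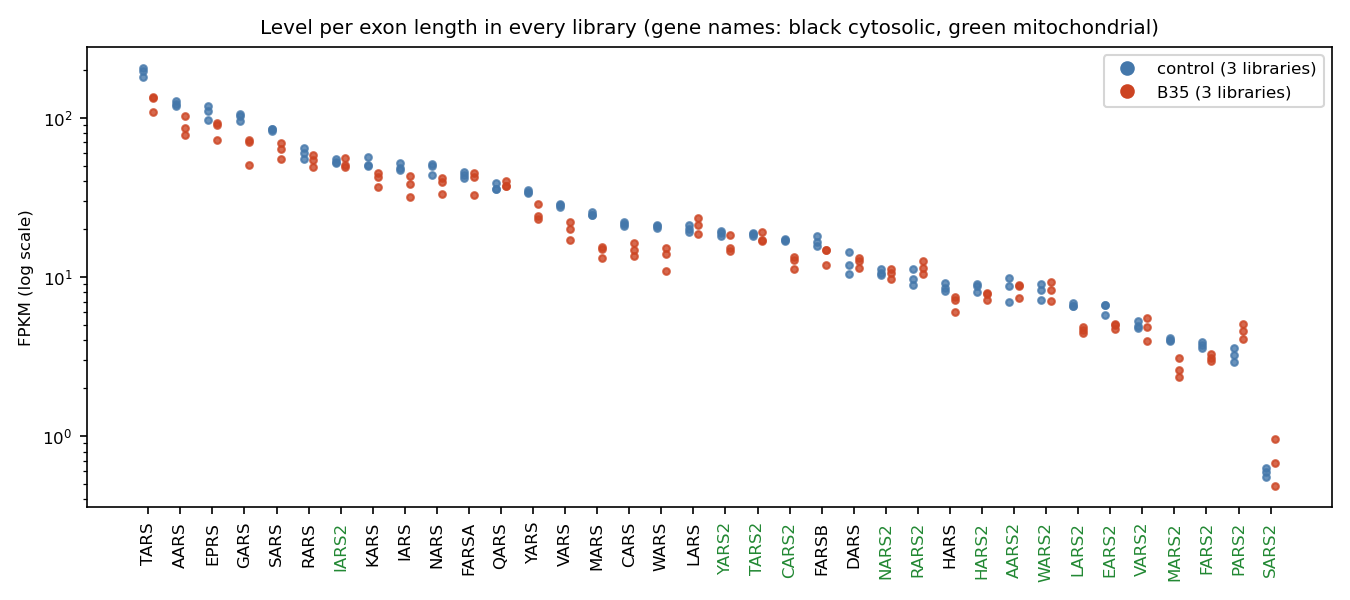
FPKM on a log axis for the 36 synthetases in the 3 control (blue) and 3 B35 (red) libraries, ordered by the control mean, with cytosolic gene names in black and mitochondrial names in green. Control means run from 194 FPKM for TARS to 0.594 FPKM for SARS2, and most cytosolic genes stand to the left of most mitochondrial genes.

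The partners of the synthetases were followed in a list of 13 genes, of which 2 fell and none rose (15.4% lower, against 6.59% of all genes tested that fell and 8.82% that rose). XPOT, which exports tRNA from the nucleus, was at 401, 368 and 398 CPM in control and 279, 263 and 215 CPM in B35 libraries. It was 1.54-fold lower with no overlap (log2 −0.62 ± 0.11, edgeR adjusted p = 0.00422). AIMP2, a scaffold of the multisynthetase complex, was at 45.9, 39.6 and 39.1 CPM in control and 27.8, 28.9 and 25.0 CPM in B35 libraries. It was 1.53-fold lower (log2 −0.61 ± 0.11, edgeR adjusted p = 0.00513), and some of its exon bases also belong to EIF2AK1. The list's median log2 fold change was −0.18, and without B35 replicate 1, 4 of its genes fell.

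Of 34 genes of the GCN2 and ATF4 pathway 14 fell and none rose, with a median log2 fold change of −0.25. The falls are 41.2% of the list, against 6.59% of all genes tested. The list was chosen with earlier results of these data known, so these shares only describe it. The 14 falls became 12, 12 and 10 without control replicates 1, 2 and 3. PSPH, which completes serine synthesis, was at 77.3, 73.8 and 78.4 CPM in control and 30.4, 37.0 and 28.0 CPM in B35 libraries, or 2.40-fold lower (log2 −1.27 ± 0.12, edgeR adjusted p = 0.000128). PSAT1, the step before it, was 2.06-fold lower, the stress factor ATF3 2.82-fold lower and PPP1R15B, a regulator of eIF2 phosphatase, 1.63-fold lower (edgeR adjusted p = 0.000593, 0.00107 and 0.00117). These falls held under each alternative run. ATF4 itself was at 488, 486 and 491 CPM in control and 424, 506 and 413 CPM in B35 libraries and did not pass the test (log2 −0.12 ± 0.097, edgeR adjusted p = 0.426). EIF2AK4, the GCN2 kinase, had a log2 fold change of −0.01 ± 0.11 (edgeR adjusted p = 0.962). No gene of the list rose in the main edgeR test. With all libraries, 1 rose with upper-quartile scaling, DESeq2 or the replicate block, 2 with no count filter and 3 with the offsets. Without B35 replicate 1, 3 rose, and without control replicate 2, 1 rose.

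The steps around aminoacylation were followed in 3 further lists, beside a background of 6.59% of all genes tested that fell and 8.82% that rose. Of 12 tested cytosolic elongation and initiation factors 2 fell (16.7%), EIF4G1, the scaffold of cap binding (1.33-fold lower), and EIF2S2, the beta subunit of eIF2 (1.35-fold lower, edgeR adjusted p = 0.019 and 0.0238). Their calls were lost without control replicate 3 (0.104 and 0.102), and EIF4G1 was also lost without control replicate 2 (0.0766) and EIF2S2 without control replicate 1 or B35 replicate 3 (0.0955 and 0.0616). In that list 4 genes fell without B35 replicate 1 or 2, 1 fell without control replicate 1 or 2 or B35 replicate 3, and 2 rose without B35 replicate 1. EEF1G is listed at 0 in every library and shares exons with AP002990.1.

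Of 11 mitochondrial translation factors 2 fell (18.2%, against 6.59% of all genes tested), the elongation factors GFM1 (1.47-fold lower, edgeR adjusted p = 0.00489) and TUFM (1.23-fold lower, 0.0492). GFM1 held under each alternative run. TUFM was lost in several settings, among them without any 1 of the controls (0.129, 0.129 and 0.182), without B35 replicate 3 (0.0966) and with upper-quartile scaling (0.0608), leaving 1 gene of the list. Of 26 genes of RNA polymerase III and tRNA maturation 4 fell, a share of 15.4% against 6.59% of all genes tested, and 8 fell with offsets for GC content and exon length. Among them were ELAC2, which processes tRNA precursors, and the polymerase subunits POLR3K and POLR3G, at 1.23-, 1.48- and 1.63-fold lower (edgeR adjusted p = 0.0412, 0.041 and 0.0473). No gene of the list fell without control replicate 1 or 3, 2 fell without control replicate 2 and 1 without B35 replicate 3, and 1 rose without B35 replicate 1. POLR3K and POLR3G share exon bases with neighbouring genes, and POLR3G was low (5.04 CPM in control cells). At an unadjusted p under 0.05 by edgeR, 3 genes of the GCN2 and ATF4 list (EIF2AK3, CEBPB and STC2), MTFMT among the partners, EEF2 among the elongation factors and POLR3GL among the polymerase III genes were higher, and 0 mitochondrial factors and 0 cytosolic synthetases were. These genes are named after their values were seen, and limma-voom called none of them higher after adjustment, while DESeq2 called 1 gene of the GCN2 and ATF4 list.

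**Figure D4:**
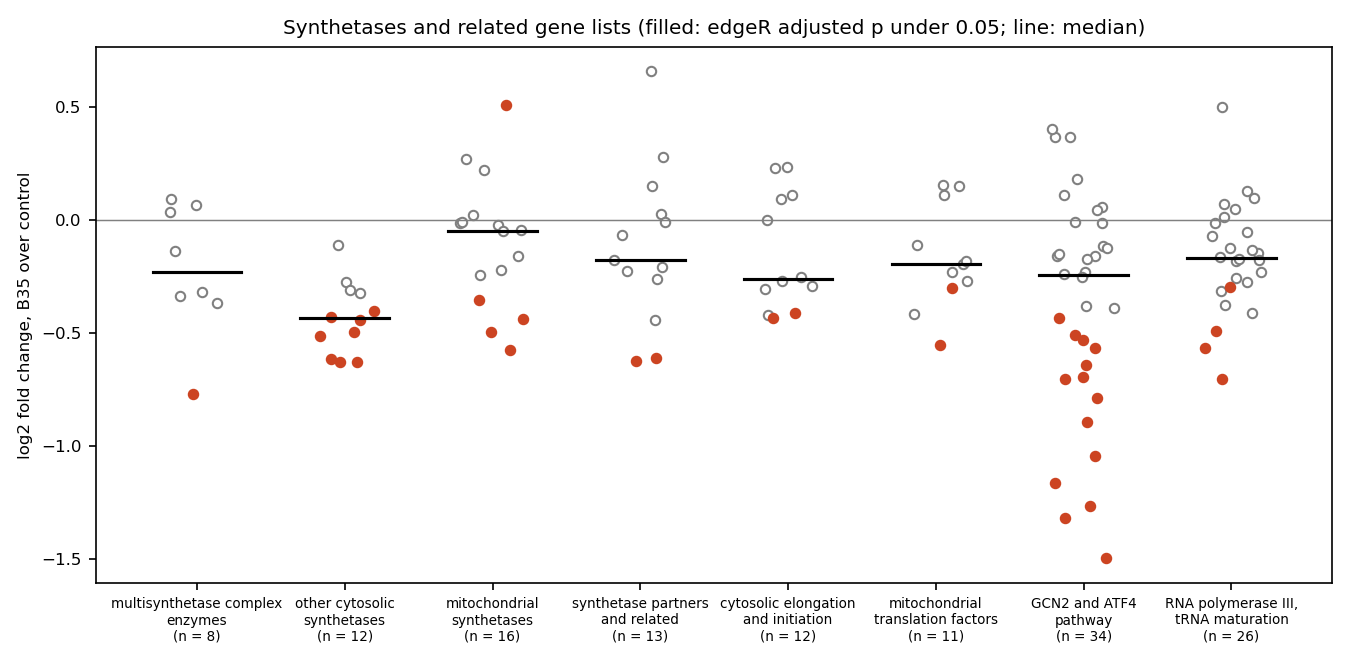
Log2 fold change of B35 over control for each tested gene of 8 groups, with genes at an edgeR adjusted p under 0.05 filled and the group's median as a line. The median lies at −0.44 for cytosolic synthetases outside the multisynthetase complex, −0.23 for those in it and −0.05 for mitochondrial synthetases, and the GCN2 and ATF4 pathway holds 14 filled points, all below 0.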

How the data were processed

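The 3 control and 3 B35 libraries were made with a NEBNext Ultra kit, per the labels' protocols. The submitters' processing notes name hg38, HISAT2 2.0.5 and featureCounts 1.5.0-p3. No strand setting is given in the sources used here. The deposited files give a whole-number count and an FPKM value per gene, as made by the authors. FPKM values served only to compare levels between genes.

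All 58735 identifiers are in GENCODE 29, which gave symbols, coordinates and exon overlaps. The main test was the two-sided quasi-likelihood test in edgeR 4.0.16 under R 4.3.3. Genes were first filtered with filterByExpr, which asked for a count of 10 and a total of 15, and libraries were scaled by TMM (factors 0.979 to 1.03). P-values were adjusted over the 14773 genes kept. CPM uses these factors. The SE is the log2 fold change over the square root of F. The members and lists were chosen with earlier results of these data known. All 36 members are named. Each companion list names up to 4 genes that passed, by adjusted p, besides ATF4, EIF2AK4 and KDM1A. Some results that this rule names are not reported here. On simulated counts with 14392 genes in the fit, 67, 67 and 66 genes were changed 1.5-, 2- and 4-fold. The test recovered 59.7%, 83.6% and 100% of them, with 9 false calls among 171. Alternatives included DESeq2 1.42.0 and limma-voom (limma 3.58.1), and GC content with exon length (natural splines with 5 degrees of freedom). Python 3.11.15 with pandas 2.3.3 and matplotlib 3.10.9 made the tables and plots.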

Additional observations from a re-analysis of the deposited data

How the results depend on the processing

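No called synthetase changed sign in any of the 15 alternatives. The number of genes called was 2276, and 3823 with each library's trends on GC content and exon length removed (1986 higher and 1837 lower). With 1 library left out it ran from 881 to 3342 (587 to 1822 higher, 294 to 1520 lower).

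Synthetases that fell numbered 6 to 18 with 1 library left out and those that rose 0 to 1. Cytosolic falls ran from 5 to 14 and mitochondrial falls from 1 to 4, with 0 to 1 mitochondrial rise. With the replicate block or the GC and length offsets 14 cytosolic synthetases fell (in both cases EPRS, IARS and KARS of the multisynthetase complex were among them), and all 14 synthetases called with all libraries and no block stayed called. By limma-voom no synthetase rose, so 0 of 16 mitochondrial genes did (PARS2, adjusted p = 0.0509). The mitochondrial median log2 fold change was −0.020 with upper-quartile scaling and −0.11 with the offsets, and −0.11 to −0.053 with 1 library left out. The cytosolic median then ran from −0.41 to −0.29.

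Partners that fell numbered 2 to 4 with 1 library left out, and 1 rose with the offsets. Cytosolic elongation and initiation factors that fell numbered 0 to 4 with 1 library left out and 0 to 2 rose. In that list 4 fell with relative log expression scaling or no count filter, 5 with DESeq2 or the replicate block and 6 with the offsets. Mitochondrial translation factors that fell numbered 1 to 3 with 1 library left out and 1 with upper-quartile scaling or the replicate block (TUFM, edgeR adjusted p = 0.0514 with the block). In the GCN2 and ATF4 list 0 to 3 rose with 1 library left out, 1 with upper-quartile scaling, DESeq2 or the replicate block, 2 with no count filter and 3 with the offsets. Polymerase III and tRNA genes that fell numbered 0 to 5 and those that rose 0 to 1 with 1 library left out, while 2 fell with upper-quartile scaling and 8 with the offsets. Fits without a library use fewer samples. The cause of the other shifts was not tested.

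Control and B35 libraries with the same number had correlations of their deviations of 0.163, 0.0162 and −0.063, and control replicate 2 correlated best with B35 replicate 3 (0.249), so the numbers are not taken as pairs and the block is given as an alternative only. The edgeR test recovered 59.7% of 67 simulated 1.5-fold changes over 14392 genes, so changes of that size can be missed. Far fewer genes were changed in the simulation than the 2276 called here, so this share need not hold for these data.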
